A study of Sus scrofa with 180 samples.

Results

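The report covers the 3 probes that carry the names TLR6, CCL21 and CCL23 on a pig muscle microarray, read in 2 muscles of 90 pigs, the Longissimus (LM) and the Semimembranosus (SM). The study's supplementary lists, used here only to pair probes with gene symbols, name 3967 of the 15198 probes on the array, and each of the 3 genes had 1 probe. The lists hold probes that the study had called different between the muscles, TLR6 in the list for LM and the chemokines in the list for SM. The muscle contrast thus chose the members, and their differences between LM and SM are given as a description, with no test.

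The pigs were non-modified females and barrows of an F2 intercross between a Pietrain type sire line and a synthetic sire line (FH019). The study writes the Pietrain type line as FH016, and the deposited labels write it as F016. The pigs came from half-sib families, and every animal carried only the normal allele at HAL and at RN. Both muscles were sampled from every pig shortly after slaughter, and total RNA of each muscle sample was labelled with Cy3 and hybridized to its own array, which gave 90 arrays of LM and 90 of SM. The superficial part of the muscle was taken with a trocar, by 1 operator for LM and 1 for SM. The pigs received no treatment that the sources describe, and LM and SM are the only groups.

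Toll-like receptors are sensors of the innate immune system that recognise molecules made by microbes. TLR6 works as a pair with TLR2 and senses lipopeptides of bacteria. CCL21 is a chemokine made mainly by lymphatic endothelium and lymph node stroma, which draws cells that carry the receptor CCR7. CCL23 is a chemokine that acts on CCR1 and is made by cells of the myeloid lineage.

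Each probe is a single strand of DNA, printed here 5′ to 3′ as the scanner files give it. Runs of 15 or more bases in common were sought on either strand among all probes of the array. The capitals mark the run that the TLR6 probe shares with other probes on the same strand. The CCL21 and CCL23 probes shared no such run with any probe.
TLR6 (BW970672.1_237): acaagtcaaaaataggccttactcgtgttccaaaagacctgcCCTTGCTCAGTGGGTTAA
CCL21 (CF179567.1_669): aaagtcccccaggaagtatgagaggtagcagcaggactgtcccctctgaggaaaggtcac
CCL23 (CA780674.1_654): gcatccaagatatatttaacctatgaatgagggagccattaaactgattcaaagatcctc

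The last 18 bases of the TLR6 probe, positions 43 to 60, were found whole and on the same strand in 3 other probes, none of which the lists name. Another 3 probes, also without a name, held a run of at least 15 of these or neighbouring bases on the opposite strand. They are shown because their values are set beside those of TLR6, with the shared run in capitals. The first 3 lie on the same strand and the last 3 on the opposite strand.
BF193412.1_104: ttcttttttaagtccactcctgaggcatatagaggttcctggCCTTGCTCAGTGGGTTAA
BP433811.1_84: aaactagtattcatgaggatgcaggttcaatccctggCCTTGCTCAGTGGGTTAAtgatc
BP450538.1_77: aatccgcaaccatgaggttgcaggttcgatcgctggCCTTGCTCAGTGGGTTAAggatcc
CO986768.1_153: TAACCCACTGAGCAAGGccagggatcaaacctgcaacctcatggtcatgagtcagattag
scaw0002.i_153: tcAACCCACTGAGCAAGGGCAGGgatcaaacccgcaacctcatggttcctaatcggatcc
scaw0002.j_124: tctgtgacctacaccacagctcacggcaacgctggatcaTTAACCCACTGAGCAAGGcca

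Sharing of this kind was common on the array. Of the 15198 probes, 2735 (18%) held a run of 15 bases that another probe also held. The pig genome carries very many copies of short interspersed repeats, and transcripts often include them. No repeat library was used here, so the shared bases were not assigned to a repeat family. In the RefSeq gene table for Sscrofa11.1, TLR6 lay beside TLR10 and TLR1 on chromosome 8, and TLR1 carried TLR6 as a synonym. The array files name no genome build, and the name TLR6 rests on the study's annotation alone. In the same table CCL21 lay beside CCL19 on chromosome 10, and CCL23 was not among the symbols.

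The processed signal, the brightness of a spot after background subtraction, had a median per array of 171 to 304 in LM and of 105 to 252 in SM. Between 69.2% and 99.9% of the probes of an LM array, and between 63.4% and 83.3% of those of an SM array, stood well above background. The LM arrays lay on 21 slides scanned on 10 days and the SM arrays on 14 slides scanned on 5 days. No slide and no scan day held both muscles, so muscle, slide and scan day cannot be told apart in any difference between LM and SM. Of the muscle fibre genes listed for the check of the tissue, 4 had a named probe. The probes of ACTA1, the actin of skeletal muscle, had mean values 8.27 to 10.05 above the array median on the log2 scale. The probe of MYH1 had 8.25 in LM and 8.75 in SM. The probes of TTN ranged from -0.76 to 4.74, and that of CKM lay near the array median, at 0.06 in LM and -0.33 in SM. Values below are log2 processed signals minus the median of their array, with spots that were dim, not uniform or saturated left out.

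The TLR6 probe was bright on every array. Its processed signal was lowest at 79176, had a median of 111414 and was highest at 320343 in LM, and it was 13546, 23957 and 53516 in SM. It was brighter than a median of 98.9% of all probes in LM and 96.96% in SM, a description of the spots that does not rank transcripts by abundance. On the centred log2 scale its lowest, median and highest values were 7.20, 7.71 and 8.28 in LM (mean 7.71 ± 0.19, SD, n = 89) and 5.11, 5.71 and 6.91 in SM (mean 5.74 ± 0.32, SD, n = 90). The lowest LM value lay above the highest SM value, so the groups did not overlap. The scanner read all 90 LM spots and 62 of the SM spots of this probe from its scan at low gain, and 1 LM spot was saturated and not uniform.

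TLR6 was higher in LM by 1.97 on the log2 scale (SE 0.040), an FC ratio of 3.92. It was higher in LM in 89 of the 89 pigs with both values, with differences within a pig from 0.81 to 2.78. The limma fit called 81.7% of the 10989 probes at an adjusted p of at most 0.05, 41.6% with the higher mean in LM and 40% in SM, and the groups did not overlap for 2.44%. All 3 members were called, as the choice from the study's lists had fixed, and nothing is read from that count.

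CCL21 ran the other way. Its processed signal was 48.1, 189 and 469 (lowest, median and highest) in LM and 124, 349 and 858 in SM, with all 180 spots well above background. The centred values were -2.76, -1.53 and 0.17 in LM (mean -1.55 ± 0.60, SD, n = 89) and -2.10, -0.37 and 0.76 in SM (mean -0.45 ± 0.55, SD, n = 90). The groups overlapped over most of their range. Only 10 of the 90 SM values lay above every LM value, and 19 of the 89 LM values lay below every SM value. CCL21 was lower in LM by a log2 difference of -1.10 (SE 0.086), an FC ratio of 2.15 in favour of SM, and it was higher in SM in 80 of 89 pigs. Without the filter on dim probes the difference was -0.66. In bulk muscle, fewer cells of a type and less RNA per cell cannot be told apart.

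CCL23 was the dimmest of the 3 probes. Its processed signal was 7.65, 42.4 and 171 in LM and 16.9, 86.6 and 503 in SM. The spot was well above background on 54 of 90 arrays in LM and 83 of 90 in SM. Over these spots the centred values were -4.40, -3.34 and -1.81 in LM (mean -3.28 ± 0.52, SD, n = 54) and -3.32, -2.28 and -0.15 in SM (mean -2.15 ± 0.70, SD, n = 83). The groups overlapped, although 29 of the 54 LM values lay below every SM value among these spots. The lowest SM value depends on the 7 SM spots left out as dim, so this count does not describe all arrays. The difference was -1.13 (SE 0.11), an FC ratio of 2.19 in favour of SM, and SM was higher in 48 of the 50 pigs with both spots. With the dim spots kept, the difference was -1.46 and SM was higher in 85 of 89 pigs. Of the dim spots, 36 were of LM and 7 of SM. The difference was smaller with normexp background correction, at -0.74, and without the filter on dim probes, at -0.56.

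**Figure D1:**
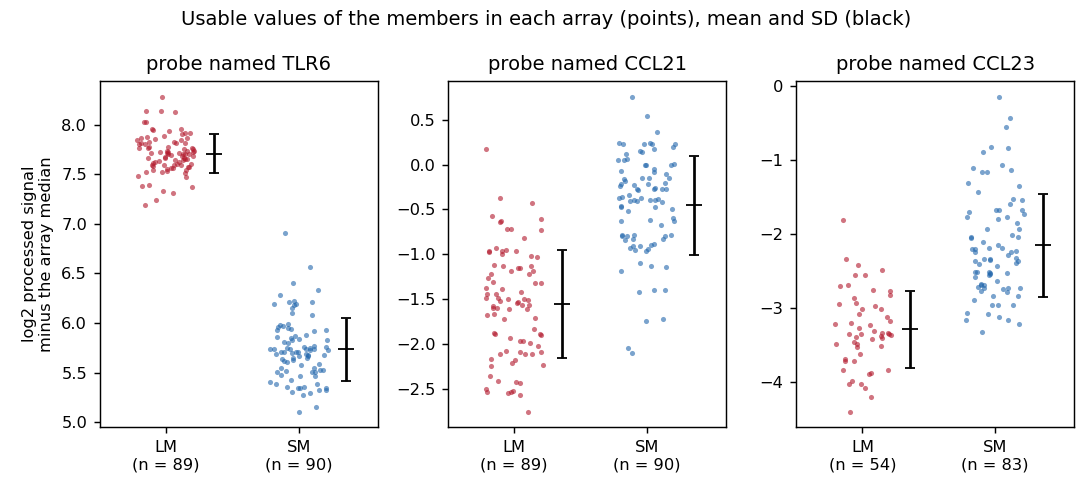
Log2 processed signal minus the array median (vertical axis) for the probes named TLR6, CCL21 and CCL23 in LM (red) and SM (blue), with 1 point for each array with a usable spot and the mean and SD in black. The TLR6 values of LM all lie above those of SM, while the values of both chemokines are lower in LM and overlap.

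The spread between arrays of the same muscle set the members apart from each other. It holds differences between pigs, slides and spots together, and the percentages below were not matched for brightness. The SD of the TLR6 probe within LM was lower than that of most probes, with 15.1% of probes below it, and in SM 54.4% of probes were below it. The SD of CCL21 exceeded that of 94.0% of probes in LM and 92.4% in SM, and that of CCL23 exceeded 90.2% and 97.6%. The median SD over all probes was 0.29 in LM and 0.31 in SM.

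Whether TLR6 ran against the chemokines from pig to pig, and not only between the muscles, was tested with its correlations with each chemokine over pigs. They belong to a set of 9 correlations, each with a permutation test and Benjamini-Hochberg adjustment over the 9. The set also holds CCL21 with CCL23 in each muscle, and each member in LM against SM. Between TLR6 and CCL23, Pearson's r was -0.05 in LM (rho 0.02, n = 53) and -0.03 in SM (rho -0.004, n = 83), each with a permutation p of at least 0.738 and an adjusted p of 0.82. Between TLR6 and CCL21 in LM the relation was positive, with r = 0.34 (n = 88, permutation p = 0.0011, adjusted p = 0.0096) and rho = 0.31 (permutation p = 0.0039, adjusted p = 0.017), and r was 0.34 without the 2 farthest pigs. Within slides this r was 0.30 with an adjusted permutation p of 0.081. With the failed spots kept r was 0.036, but rho was 0.28 (adjusted permutation p = 0.076) and r was 0.35 without the 2 farthest pigs. In SM, r between TLR6 and CCL21 was 0.10 (rho 0.06, adjusted permutation p = 0.74). The opposite direction of TLR6 and the chemokines was thus a difference between the muscles, and no negative correlation between them over pigs passed the test, except with normexp background correction, where r of TLR6 with CCL23 was -0.47 in LM and -0.41 in SM. These 2 values rested on few pigs: without the 2 farthest, r was -0.10 and -0.22, and rho was -0.11 and -0.15 with an adjusted permutation p of 0.60 and 0.31.

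CCL21 and CCL23 did not follow each other closely. Their r was 0.04 in LM (rho 0.04, n = 54, adjusted permutation p = 0.82) and 0.17 in SM (rho 0.21, n = 83, adjusted permutation p = 0.39).

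The muscles of the same pig were compared in the same way. The LM value of TLR6 showed r = 0.03 with the SM value (rho -0.06, n = 89), and that of CCL21 showed r = -0.07 (rho -0.06, n = 89), both with an adjusted permutation p of 0.82. For CCL23, r was 0.40 and rho 0.41 over the 50 pigs with both spots (permutation p = 0.0036 and 0.0033, adjusted p = 0.016 and 0.017), and r was 0.41 without the 2 farthest pigs. This relation did not hold within slides, where r was 0.13 over 45 pigs with an adjusted permutation p of 0.56. With dim spots kept it was 0.26 with an adjusted permutation p of 0.14.

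The values also differed between slides of the same muscle. Of the variance of TLR6, 48.3% lay between slides in LM (18 slides, 84 values) and 30.9% in SM (13 slides, 88 values). The adjusted p was 0.0018 and 0.024 in the F test of limma. These shares were not corrected for the number of slides, which raises them even where slides do not differ. For CCL21 the adjusted p was 0.044 in LM, or 0.42 on slides with 5 or more arrays, and 0.51 in SM, and for CCL23 it was 0.078 and 0.51. Over all probes, 51.7% in LM and 19.9% in SM passed this test. The TLR6 probe in LM also had r = 0.64 over arrays with an index that contrasts C-rich with C-poor probes, whose mean was -0.36 in LM and 0.39 in SM, and in SM this r was 0.01. The part of this index in the difference between the muscles was measured only by adding it to the fit, which gave 2.13 for TLR6 and -1.15 for CCL23 and kept the direction of CCL21. The correlations that follow were taken within slides.

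The probes that share the 18 bases on the same strand were set beside the TLR6 probe. BF193412.1_104 had a median processed signal of 141097 in LM and 37964 in SM, and it was higher in LM by 1.64 (SE 0.040). BP433811.1_84 was higher in LM by 0.47 (SE 0.030) and BP450538.1_77 by 1.09 (SE 0.037). All 3 were bright and higher in LM, as was the TLR6 probe. From pig to pig, r with the TLR6 probe was 0.91, 0.55 and 0.73 in LM and 0.94, 0.87 and 0.93 in SM, in the order in which their sequences are printed. By the measure of likeness used here, the lower of the r in LM and the r in SM, BF193412.1_104 was the most like TLR6 of 10943 probes.

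The probes with the run on the opposite strand showed another pattern. CO986768.1_153, scaw0002.i_153 and scaw0002.j_124 were lower in LM, with log2 differences of -0.99, -0.77 and -0.71. Their r with the TLR6 probe was 0.12, 0.10 and 0.10 in LM and -0.14, -0.11 and -0.06 in SM. Probes with the same bases thus went with the TLR6 probe on 1 strand and not on the other.

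**Figure D2:**
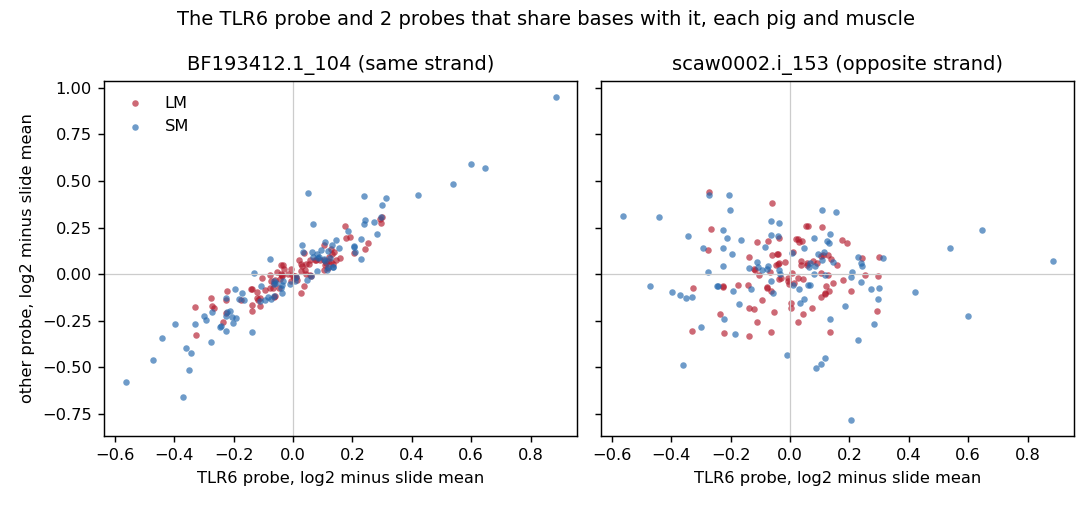
Values of the TLR6 probe (horizontal axis) against BF193412.1_104 on the same strand (left) and scaw0002.i_153 on the opposite strand (right), both as log2 minus the mean of the slide, with 1 point for each pig in LM (red) and SM (blue). The points lie along a line on the left (r = 0.91 in LM and 0.94 in SM) and show no slope on the right (0.10 and -0.11).

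The named probes most like TLR6 were those of AGPAT5, ZCRB1, C6ORF132, SETD5 and SLC16A1, with a lower r of 0.80, 0.79, 0.79, 0.78 and 0.77 over 88 pigs in LM and 90 in SM. A lower r above 0.5 was reached by 240 probes for TLR6, by 3 for CCL21 and by 7 for CCL23. AGPAT5 and SLC16A1 are an acyltransferase of phospholipid synthesis and a carrier of lactate. All 5 were higher in LM, with log2 differences from 1.28 to 2.13. Their sequences are shown because 3 of them hold a common run of 17 bases, in capitals, with 2 positions that vary.
AGPAT5 (BM659192.1_1534): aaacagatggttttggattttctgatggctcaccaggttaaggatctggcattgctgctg
ZCRB1 (BX674107.1_1259): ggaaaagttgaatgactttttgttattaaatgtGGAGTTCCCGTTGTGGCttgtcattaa
C6ORF132 (CA780655.1_283): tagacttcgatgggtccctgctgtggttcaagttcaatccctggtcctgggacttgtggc
SETD5 (BP443659.1_463): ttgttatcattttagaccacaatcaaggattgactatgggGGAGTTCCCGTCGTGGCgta
SLC16A1 (CF791512.1_1058): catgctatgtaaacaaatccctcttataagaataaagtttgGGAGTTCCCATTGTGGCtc

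The run, written GGAGTTCCCNTNGTGGC with N for any base, is not part of the TLR6 probe. It was chosen after these values were seen, so its counts are a description with no test. On the same strand it was found in 41 probes (0.27% of all), of which 39 were among the probes tested, and on the opposite strand in 50 (0.329%). The 39 include the probes of ZCRB1, SETD5 and SLC16A1, from which the run was taken and whose direction and likeness were already known. All 39 were higher in LM, with differences of 1.06 to 2.39 and a median of 1.77. Their r with the TLR6 probe had a median of 0.74 in LM and 0.91 in SM, and 1 probe, with -0.25, was below 0 in SM. Of the 50 probes with the run on the opposite strand, 43 were lower in LM and 7 higher, with a median of -0.30, and their r with the TLR6 probe had a median of 0.25 in LM and 0.16 in SM. The TLR6 difference of 1.97 lay inside the range of the 39 probes, and its part that comes from transcripts of TLR6 was not tested.

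**Figure D3:**
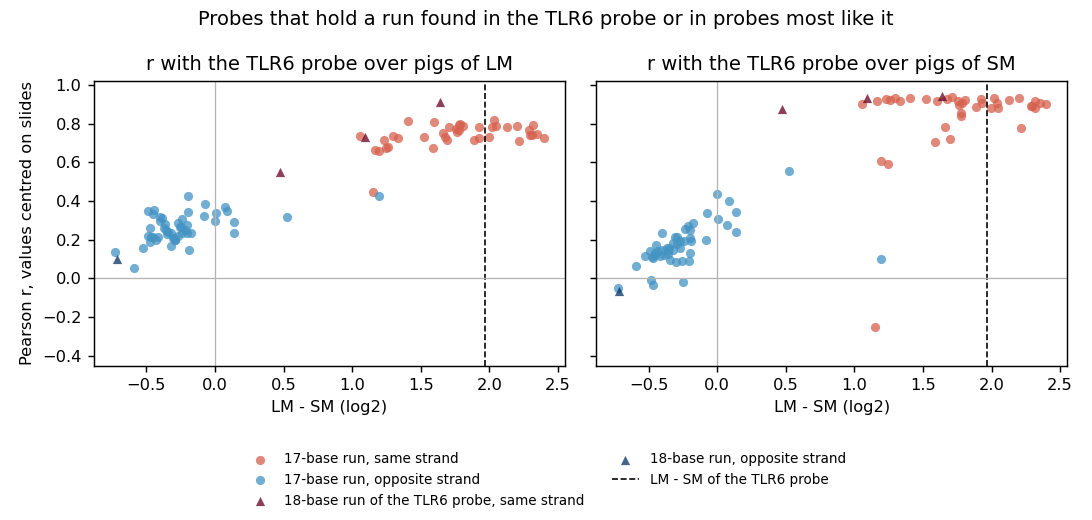
Difference LM - SM on the log2 scale (horizontal axis) against Pearson's r with the TLR6 probe over pigs (vertical axis), in LM (left) and SM (right), with 1 point for each probe that holds the 17-base run (circles) or the 18-base run of the TLR6 probe (triangles) on the same (red) or opposite (blue) strand. The same-strand probes lie at differences above 0 near the TLR6 probe (dashed line at 1.97), and the opposite-strand probes lie mostly at differences below 0 with a low r.

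The members were then compared, pig by pig within slides, with the listed genes of innate signalling and of cell types that had a named probe, in 290 relations with permutation tests and Benjamini-Hochberg adjustment over the 290. The test was not run over all probes, so the counts that follow have no share of all probes beside them. They are not read as particular to the listed genes. Of 49 probes of listed genes, 12 in LM had an r with the TLR6 probe that passed, all positive, and in SM 13 were positive and 4 negative. The 8 muscle fibre probes, 4 of them of TTN, accounted for 7 of those in LM and for 8 of those in SM, with 0.77 in SM for a probe of TTN, whose product is the giant spring protein titin (rho 0.67, n = 90, adjusted permutation p = 0.00021). The 4 probes of TTN were themselves higher in LM by 1.26 to 1.46, while those of ACTA1 and of MYH1, a myosin of fast fibres, were lower in LM. TLR2, the partner of TLR6, had a probe whose r with it was -0.07 in LM and -0.19 in SM, with adjusted permutation p-values of 0.73 and 0.31.

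Of the macrophage genes, SPI1, a transcription factor of myeloid cells, had r = 0.63 with the TLR6 probe in LM (rho 0.55, n = 48, adjusted permutation p = 0.0091), and CD68 had 0.49 (rho 0.46, n = 87, adjusted permutation p = 0.0013). The other macrophage genes with a named probe, CD14 and C1QC, each had an r of 0.03 in LM and did not pass. In SM neither SPI1 nor CD68 passed, while CD14 (-0.29) and C1QC (-0.31) were negative and passed.

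Most of the 14 probes of signal transduction genes did not follow the TLR6 probe. Only 2 passed in LM and 1 in SM, all positive. Their r had a median of 0.003 in LM (-0.27 to 0.58) and 0.04 in SM (-0.28 to 0.71). The TLR6 probe was positive in SM with NFKB1, the NF-kB subunit downstream of Toll-like receptors (r = 0.71, rho 0.73, n = 90, adjusted permutation p = 0.00021). For NFKB1 in LM, r was 0.14 and did not pass (adjusted permutation p = 0.36), with rho 0.39. In LM it was positive with the adaptor TICAM1 (r = 0.58, rho 0.51, n = 77, adjusted permutation p = 0.00021) and with IRF3, an interferon regulatory factor (0.31), and in SM these were -0.02 and 0.14. It was also positive with TLR8, a sensor of RNA, in both muscles (0.39 in LM and 0.55 in SM). In SM it was negative with LY96, the cofactor of TLR4 (r = -0.37, rho -0.33, n = 90, adjusted permutation p = 0.0058).

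In SM, 11 of the 49 probes of listed genes had a positive r with CCL23 that passed and 5 a negative one. Of the 7 probes of Toll-like receptors and co-receptors other than TLR6, 4 were among the positive and 1, of CD36, among the negative. Of the 14 probes of signal transduction genes, 3 were among the positive and 1 among the negative, with a median r of 0.08. The r of CCL23 in SM was 0.72 with CD14, the co-receptor for lipopolysaccharide (rho 0.72, n = 83), 0.70 with TLR4, the receptor itself (rho 0.75, n = 80), 0.69 with TLR2 (rho 0.71, n = 83) and 0.66 with LY96 (rho 0.64, n = 83). It was 0.69 with IRF5, a transcription factor downstream of these receptors (rho 0.70, n = 82), and 0.52 with C1QC, a complement gene of macrophages (rho 0.56, n = 83). These 6 relations had a permutation p of 1e-05, the smallest that 100000 permutations can give, and an adjusted p of 0.00021. Without the 2 farthest pigs they were 0.48 to 0.71, and without centring on slides 0.55 to 0.72.

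In LM the same 6 relations of CCL23 were positive, 0.15 to 0.41 over 48 or 49 pigs, and none passed (adjusted permutation p of 0.10 or more). With the dim spots kept, they were 0.54 to 0.70 over 88 pigs and all had an adjusted permutation p of 0.00012. Whether they differed between the muscles was not tested. CD14, TLR4, TLR2, LY96, IRF5 and C1QC were also lower in LM than in SM, as was CCL23, with log2 differences of -1.04, -0.92, -0.93, -0.33, -0.64 and -1.35. All 6 were named in the study's list for SM, which fixed this direction. Of the 13 macrophage genes listed, 4 had a named probe, and the others, CD68 and SPI1, had r of -0.05 and 0.11 with CCL23 in SM. CD68 was higher in LM, by 0.46, while SPI1 was lower in LM, with -2.97. The part of the number of macrophages in the difference of CCL23 was not tested.

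**Figure D4:**
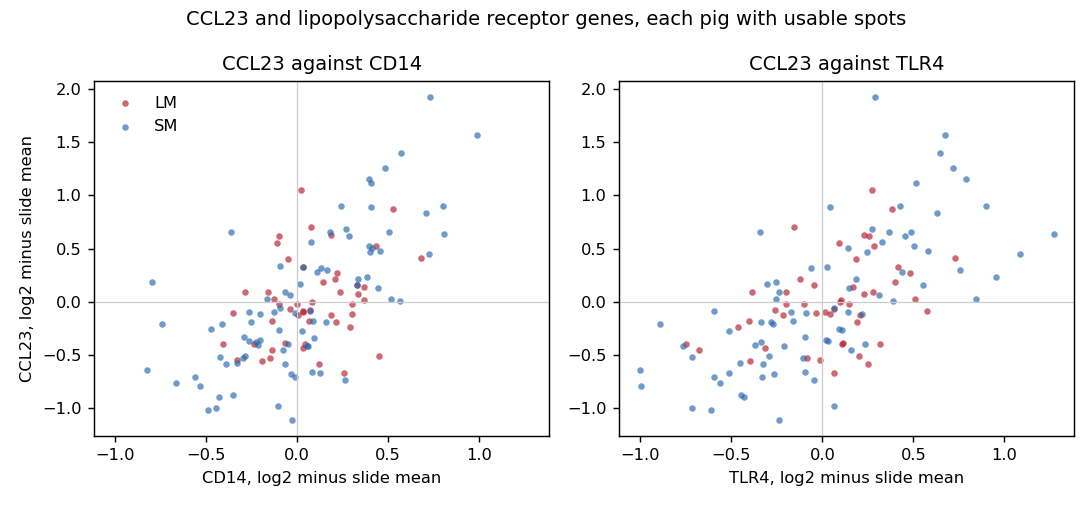
CCL23 (vertical axis) against CD14 and TLR4 (horizontal axes), as log2 minus the mean of the slide, with 1 point for each pig with usable spots in LM (red) and SM (blue). In SM the points rise together (r = 0.72 and 0.70), and LM has fewer points because the CCL23 spot was dim there.

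The named probes most like CCL23, at ranks 1, 3, 4, 6 and 7 of all probes, were those of CSF1, the growth factor of macrophages, RPL30, SERPINB8, PLOD3 and LGMN, a lysosomal protease, with a lower r of 0.54 to 0.51 over 47 to 49 pigs in LM and 77 to 83 in SM. In SM, CCL23 was negative with CXCL12, a chemokine of stromal cells (r = -0.41, rho -0.35, n = 82, adjusted permutation p = 0.0043), and with CD36, a fatty acid carrier and co-receptor (-0.34 for the probe that passed).

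CCL21 was correlated with 7 of the 49 probes of listed genes in LM, all positive, and in SM with 9 positive and 1 negative. With ADIPOQ, the hormone adiponectin of fat cells, r was 0.53 in LM (rho 0.48, n = 88, adjusted permutation p = 0.00081) and 0.43 in SM (rho 0.37, n = 90, adjusted permutation p = 0.0019). With CIDEC, a protein of the lipid droplet, it was 0.56 in LM (rho 0.51, n = 88) and 0.40 in SM (rho 0.38, n = 90). All 3 adipocyte genes with a named probe passed in both muscles. Of the 3 probes of fibroblast genes, the 2 of COL1A2, a chain of collagen I, passed in both muscles with 0.35 to 0.46. That of LUM, a proteoglycan of the matrix, passed in SM (0.42) and not in LM (0.23, adjusted permutation p = 0.13). Without the 2 farthest pigs r for ADIPOQ and CIDEC was 0.34 to 0.50, and without centring on slides 0.42 to 0.55.

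The named probes most like CCL21, at ranks 1, 2, 4, 5 and 8 of all probes, were those of FMOD and SFRP4, a collagen-binding proteoglycan and a Wnt inhibitor, then CCDC3, DKK3 and RBP4, the carrier of retinol, with a lower r of 0.53 to 0.48 over 72 to 88 pigs in LM and 87 to 90 in SM. FMOD was the closest of 10946 probes. The relation of CCL21 with CCL19, the other ligand of CCR7 and its neighbour in the gene table, was 0.47 in LM (rho 0.43, n = 88, adjusted permutation p = 0.00087) and 0.15 in SM, where it did not pass. With VWF, a gene of blood endothelium, it was 0.42 in SM (rho 0.41, n = 89, adjusted permutation p = 0.0016) and -0.13 in LM. CDH5, the other blood endothelium gene with a named probe, had 0.11 in SM and 0.10 in LM and did not pass.

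The 3 adipocyte genes were lower in LM than in SM, with log2 differences of -1.04 to -1.17, as were the 3 fibroblast probes, with -0.40 to -0.67. All of these probes were named in the study's list for SM, which fixed this direction. Their SDs within a muscle, 0.79 to 0.99 for the adipocyte genes, also exceeded that of most probes. The part of fat and connective tissue in the difference of CCL21 was not tested. Of 7 lymphatic endothelium genes listed, CCL21 itself was the only one with a named probe, and no T cell or granulocyte gene of the lists had one.

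**Figure D5:**
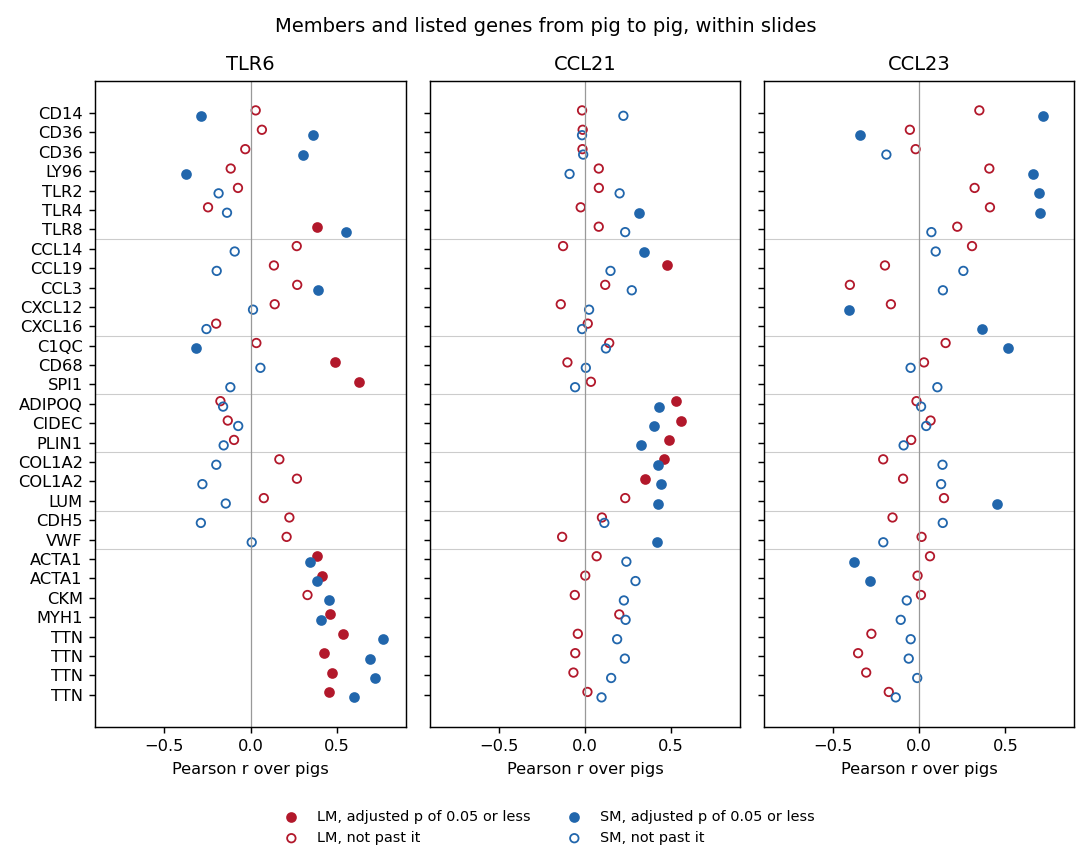
Pearson's r over pigs, within slides, of TLR6, CCL21 and CCL23 (panels) with probes of listed genes (rows, grouped from the top as Toll-like receptors and co-receptors, chemokine ligands, macrophage, adipocyte, fibroblast, blood endothelium and muscle fibre), in LM (red) and SM (blue), filled where the adjusted permutation p was 0.05 or less. TLR6 is filled along most fibre probes, CCL21 along the adipocyte genes and most fibroblast probes, and CCL23 in SM along CD14, LY96, TLR2 and TLR4.

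The muscle difference of the related genes was mixed in direction. Of the 13 Toll-like receptor genes and co-receptors listed, 7 had a named probe, and of their 8 probes 4 were higher in LM (TLR6, TLR8 by 1.16, and CD36 by 0.31 and 0.22) and 4 in SM (CD14, TLR2, TLR4 and LY96). Of 14 probes of signal transduction genes, 7 were higher in LM, with 1.31 for NFKB1, and 6 in SM, with -1.05 for the adaptor TICAM1. Of 7 chemokine ligands, CCL3, CXCL12 and CCL14 were higher in LM, by 0.51, 0.47 and 0.35, and CCL19, CCL21, CCL23 and CXCL16 were higher in SM, with a difference of -1.53 for CCL19. Since the lists at hand name almost only probes that the study had called, these counts are not read as a result.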

How the data were processed

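Each array was a single-colour Agilent array. Per the file headers, Feature Extraction 9.5.1.1 read 44 arrays (all LM) and 9.5.3.1 read 136. The deposited scanner files hold, for each of 15744 spots (15198 probes and 546 controls), an intensity: the processed signal, background-subtracted but without scaling across arrays. A second deposited table, by the authors, gives 6903 probes on the natural log scale. All of its values lay within 0.01 of the natural log of the processed signal minus 1 constant per array.

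The steps follow the study's methods except that its filter on variability by K-means was not run, single failed spots were set to missing and the base of the log differs. The log2 of the processed signal was taken, and a spot was treated as missing when it was dim against its background, saturated or not uniform. A probe was dropped if over 50% of its spots failed in LM or in SM, the array median was subtracted, and outlying values, over 3 SD from their probe's mean, were dropped, leaving 10989 probes. The terms of the study's model for sex, carcass weight and the batches of slaughter and hybridization were not fitted because the labels do not give them. The sources differ on the amount of RNA labelled. The fit used lmFit and eBayes of limma 3.58.1 (R 4.3.3, statmod 1.5.0) with Benjamini-Hochberg adjustment over all probes, and was tested on simulated data. Correlations used 100000 two-sided permutations of pigs (Python 3.11.15, NumPy 2.4.6, SciPy 1.17.1, pandas 2.3.3, matplotlib 3.10.9). Where values were centred on slides, pigs were permuted within slides for relations within a muscle. Between the muscles, slide-centred values were permuted over all pigs. Slides were compared with 3 or more arrays each. The pig number in the labels pairs the muscles of an animal.

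The members, the gene lists and the tests were chosen with earlier results of these data known. Genes named are the members, the 5 named probes most like each (within slides, at least 45 pigs per muscle) and the listed genes with a named probe. Symbols come from the study's lists of called probes, of which the copy for SM is shortened. The columns of the study's own comparisons in them were not used. The relations with listed genes and the 17-base run were added after seeing the data. As alternatives, arrays were centred on the 75th percentile or quantile normalized, background was corrected by normexp (offset 50), failed spots, dim probes or outlying values were kept, the pig or the slide was a block, the deposited table was used, or an index of C-rich probes entered as a covariate. The index sets probes with at least 8 C among their first 15 bases against those with at most 2. The number of arrays limits the precision. 1 listed gene is not reported here.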

Additional observations from a re-analysis of the deposited data

How the results depend on the processing

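The direction of the difference between the muscles was kept by all 3 members under the 10 alternatives, with a range of 1.91 to 2.40 for TLR6, -1.20 to -0.66 for CCL21 and -1.46 to -0.56 for CCL23. TLR6 moved by more than its spread, to 2.40, without the filter on dim probes. In that setting the array median was taken over more probes. All 3 members shifted toward LM there, CCL21 to -0.66 and CCL23 to -0.56. With the pig as a replicate block, the differences were 1.97, -1.09 and -0.99. Correlations changed more.

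Signs turned for weak correlations. For TLR6 between the muscles, r became -0.029 with quantile normalization, -0.076 with the index of C-rich probes and -0.13 without the 2 farthest pigs. For CCL21 and CCL23 in LM it became -0.049 with quantile normalization and -0.18 within slides, and for TLR6 and CCL21 in SM -0.049 with normexp. For TLR6 and CCL23 in LM it became 0.011 with centring on the 75th percentile, 0.31 without the filter and 0.10 with the index, and in SM 0.023 with quantile normalization and 0.071 without the filter. The relation of CCL23 between the muscles no longer passed with quantile normalization (0.34), normexp (0.21), failed spots kept (0.26), no filter (0.33), the deposited table (0.26) and within slides (0.13). That of TLR6 and CCL21 in LM no longer passed with normexp (0.19), failed spots kept (0.036), the deposited table (0.27) and within slides (0.30). With normexp, r passed at 0.35 for CCL21 and CCL23 in LM and at -0.47 in LM and -0.41 in SM for TLR6 and CCL23, which were -0.10 and -0.22 without the 2 farthest pigs. The cause was not tested. The slide difference of CCL21 in LM no longer passed on slides with 5 or more arrays (adjusted p = 0.42), where CCL23 in LM could not be fitted.

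Of the alternatives chosen after seeing the data, values not centred on slides moved the listed genes correlated with TLR6 in LM from 12 to 19 and with CCL21 in SM from 10 to 16. With CCL23 in LM, 1 relation passed, against 2 with quantile normalization, 15 with normexp, 11 with failed spots kept and 8 without centring. The relations of CCL23 with CD14, TLR4, TLR2, LY96, IRF5 and C1QC in SM and of CCL21 with ADIPOQ and CIDEC kept their direction and passed under these 4 alternatives. All 39 same-strand probes with the 17-base run were higher in LM under the 6 alternatives run for them. Dim spots limit CCL23 in LM most, where 36 of 90 spots were not well above background.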
